A study of Mus musculus with 8 samples.

Results

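The nuclear genes for the subunits of oxidative phosphorylation were followed in mouse liver, in wild-type animals and in animals heterozygous at the gene for eIF2α, a translation factor that dampens protein synthesis in stressed cells once it is phosphorylated. Members were chosen by symbol alone: Nduf genes of the A, B, C, S and V series, Sdha to Sdhd, all Uqcr genes, Cox4 to Cox8 and all Atp5 genes, with symbols marked -ps left out. This gave 89 of 56077 rows of the deposited count table, of which 40 belong to complex I, 4 to complex II, 8 to complex III, 19 to complex IV and 18 to complex V. Of these, 80 had enough counts to be tested and 9 had not, namely 6 tissue isoforms of complex IV, the processed pseudogenes Ndufa11b and Cox6c2, and one of the Ensembl identifiers named Atp5o. Livers came from fed C57BL/6 mice aged 6 months, 4 wild type (WT) and 4 heterozygous (Het), and total RNA was sequenced after removal of ribosomal RNA. The heterozygous genotype is written in the labels as flox/+, no recombinase is named, and one shared protocol field describes every mouse as lean and wild-type. The letter W in a column name of the table marks WT (W32, W33, W76, W90) and the letter H marks Het (H11, H12, H15, H75). No label states that the mice came from separate litters, so p-values measure only the spread between these samples.

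In the inner mitochondrial membrane, complexes I and II take electrons from NADH and succinate, ubiquinone and cytochrome c pass them through complex III to complex IV, and complex IV reduces oxygen. Complexes I, III and IV pump protons, and complex V, the ATP synthase, uses the gradient to make ATP. In hepatocytes this ATP pays for gluconeogenesis, urea synthesis and protein secretion. Complex II is built from nuclear genes alone, whereas the others combine nuclear subunits with subunits encoded in mitochondrial DNA.

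The promoters of the members were searched for letters that the choice by symbol did not use, and each set of letters known from respiratory genes stood in a minority of members. RefSeq promoter windows on GRCm38.p6, from 250 bases before to 50 bases after the start, were found for 64 of the 80 tested members, in 69 windows. The letters of the element of the factor NRF1, the capitals of the sites printed here with any base in the middle and on either strand, stood in 24.6% of these windows, against 4.60% of the 32851 windows of all genes and 9.51% of the windows of all tested genes. They were present in 6 of the 31 complex I genes with a window, 2 of 3 in complex II, 1 of 5 in complex III, 1 of 10 in complex IV and 6 of 15 in complex V. The sites shown here are those of Sdha, which holds 3, and, as examples from complexes I, II, IV and V, of 5 other members with a site fully before the start. Each runs 5′ to 3′ on the strand of the gene, with the matching letters in capitals and 10 bases on each side.
Ndufa11, chr17:56717692-56717721, + strand: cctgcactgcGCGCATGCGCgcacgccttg
Sdha, first site, chr13:74350319-74350348, - strand: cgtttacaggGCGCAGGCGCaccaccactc
Sdha, middle site, chr13:74350276-74350305, - strand: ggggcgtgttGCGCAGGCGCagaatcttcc
Sdha, last site, chr13:74350231-74350260, - strand: gcgactcggtGCGCAAGCGCagtctgtcgc
Sdhd, chr9:50603909-50603938, - strand: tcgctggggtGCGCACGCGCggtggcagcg
Cox6a1, first site, chr5:115349101-115349130, - strand: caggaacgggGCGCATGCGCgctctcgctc
Cox6a1, last site, chr5:115349056-115349085, - strand: cggataaagtGCGCAGGCGCtggagttcct
Atp5g2, chr15:102671070-102671099, - strand: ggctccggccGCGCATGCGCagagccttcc
Atp5k, chr5:108434430-108434459, - strand: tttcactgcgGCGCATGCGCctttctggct
These 9 sites begin between 10 and 162 bases before the RefSeq start. As GENCODE draws the genes, the site of Atp5g2 and the last site of Sdha lie inside the gene, and the capitals of the Atp5k site run across its start.

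Other elements known from promoters of respiratory genes were searched in the same way. The letters AAGATGGC of the YY1 element, on either strand, stood in 14.5% of the windows of tested members against 2.75% of all windows and 4.24% of those of all tested genes. Of the 10 matches, 8 began 23 to 39 bases after the start, 7 of them in complex I genes, and in all 8 the letters ATG inside the match were an annotated start codon in GENCODE. The YY1 letters and the start of translation therefore cannot be told apart at these places, as the following sites show with the match in capitals.
Ndufa3, chr7:3617385-3617412, + strand: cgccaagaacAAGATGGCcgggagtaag
Ndufc1, chr3:51408916-51408943, - strand: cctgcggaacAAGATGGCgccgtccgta
Ndufs7, chr10:80249463-80249490, + strand: ggccgaggccAAGATGGCggcgctggcg
The ETS letters CCGGAAGT, bound by GABPA, stood in 7.25% of the members' windows, against 3.89% of all windows and 7.66% of those of all tested genes. Complex III genes held 2 of these windows, and the letters of the estrogen-related receptor element, TCAAGGTCA, stood in 2.90% of the members' windows against 0.423% of all and 0.272% of those of all tested genes. The following sites show the ETS letters of 2 complex III members and the receptor letters of Atp5g3, on the strand of each gene, where Uqcrh and Atp5g3 carry the reverse complement.
Uqcr11, chr10:80406870-80406897, - strand: tctctcctccCCGGAAGTagatgtcaat
Uqcrh, chr4:116075064-116075091, - strand: agtatgccgcACTTCCGGccaggtcgcc
Atp5g3, chr2:73911360-73911388, - strand: tgttacaaagTGACCTTGAgcgtcttccc
TATAAA, searched on the strand of the gene, stood in 2.90% of the members' windows, 4.73% of those of all tested genes and 8.32% of all windows. CCAAT on either strand stood in 40.6%, 37.7% and 37.4%. These matches describe letters in the windows and do not show binding.

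Library totals lay between 22177979 and 28564357 estimated counts, and 14261 genes were tested with edgeR. No gene passed an adjusted p under 0.05 (0.0% in either direction), 9.34% had an unadjusted p under 0.05 in edgeR, and DESeq2 called 152 genes (1.16%) and limma-voom 0 (0.0%). Eif2s1, which encodes eIF2α, had 28.4, 28.8, 32.8 and 30.1 CPM (counts scaled to the effective library size) in the WT libraries and 20.5, 22.3, 20.8 and 25.1 in the Het libraries. Every Het library lay below every WT library, at a mean of 73.8% of WT (log2 fold change -0.44, SE 0.10, edgeR adjusted p = 0.315, DESeq2 adjusted p = 0.0156, exact two-sided permutation p = 0.0286, the smallest that 4 against 4 allows).

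The comparison of genotypes showed no member of the 5 complexes that passed the test. Of the 80 tested members, 70 had a higher mean in Het, where 51.1% of all tested genes did, and the median log2 fold change was 0.12 against 0.0051 over all genes. The smallest adjusted p of a member in edgeR was 0.493. By edgeR 1 member was higher at an unadjusted p under 0.05, against a background of 4.90% of all genes, and 2 members were lower, against 4.44%. By DESeq2, 2 members were higher (background 5.17%) and 1 lower (4.58%) at that level, and by limma-voom 0 (4.35%) and 1 (5.04%). No member had all Het libraries above all WT libraries (background 2.06%), and 1, Atp5g2, had all Het libraries below all WT libraries (background 2.32%). Members with a mean of at least 10 CPM, 75 in number, all lay within 0.3 of 0 on the log2 scale. No fitted setting, DESeq2 and limma-voom included, called a member. The members share their libraries, so their common direction is not a count of independent results.

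**Figure D1:**
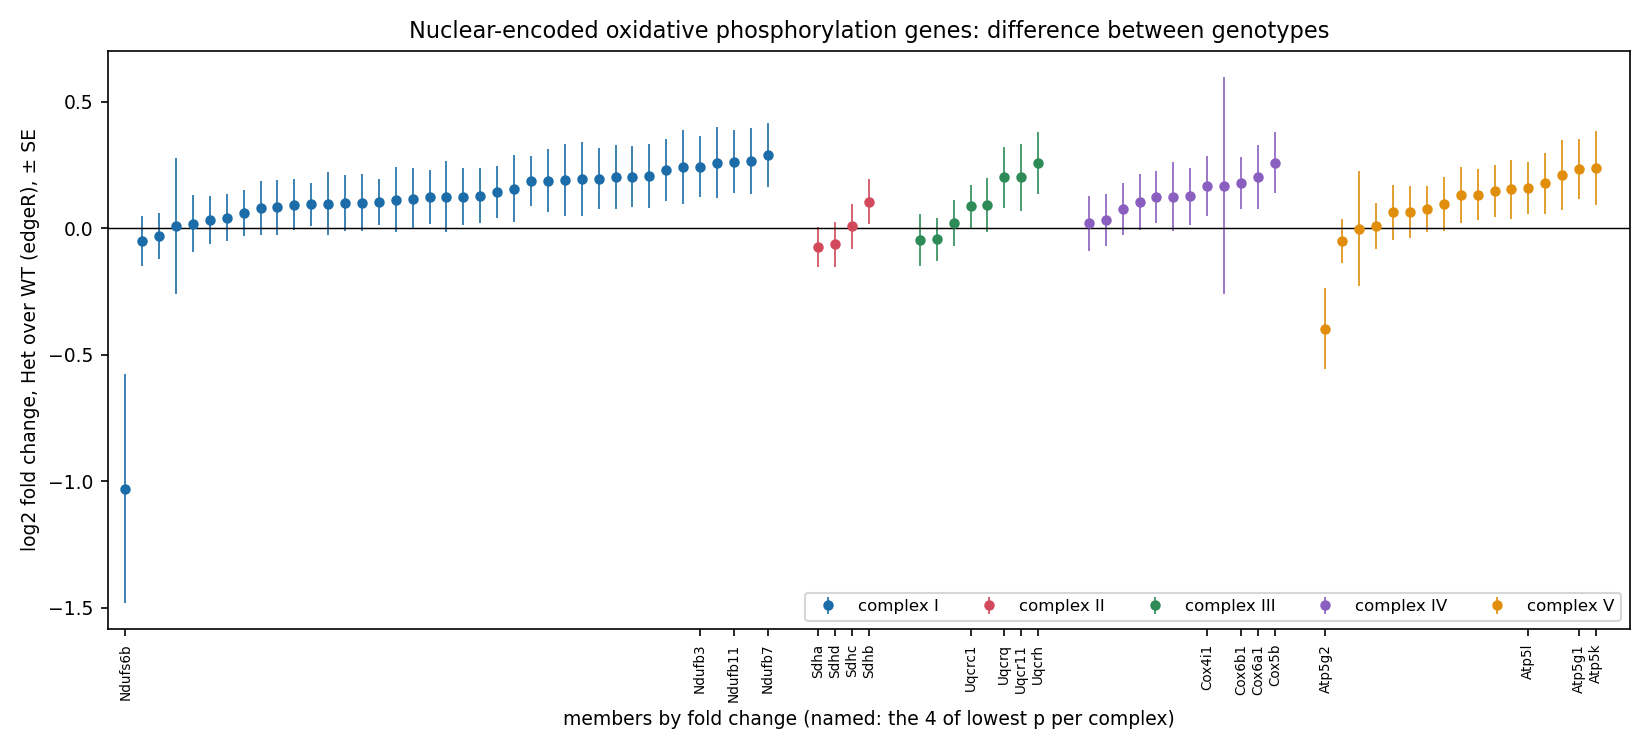
The log2 fold change of Het over WT (vertical axis) with its standard error from edgeR is plotted for each of the 80 tested members, grouped by complex and ordered within it, with the 4 members of lowest p in each complex named. Points lie mostly a little above 0, the 12 tested complex IV genes all do, and Ndufs6b and Atp5g2 lie lowest.

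The upward difference was not shared by the 4 Het libraries. The median member, as log2 CPM relative to its WT mean, stood at -0.022, -0.042, -0.034 and 0.10 in W32, W33, W76 and W90 and at -0.054, 0.19, -0.02 and 0.34 in H11, H12, H15 and H75. On this scale H75 and H12 were high, W90 stood next, and H11 and H15 were as low as the other WT libraries. In H12 and H75 together, 54 of the 80 tested members exceeded every WT library. In H11 and in H15 only 3 members did so each, while 21 members in H11 and 17 in H15 lay below every WT library. H75 was the highest of all 8 libraries for 67 members. Without H75 the median log2 fold change was 0.042. Without H15 it was 0.16, and 12 members were then higher at an unadjusted p under 0.05 in edgeR, where 7.84% of all genes were. In that fit 252 genes (1.74%) passed the adjusted threshold, none of them a member. Without H11 it was 0.18, with 11 such members and a background of 5.70%.

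**Figure D2:**
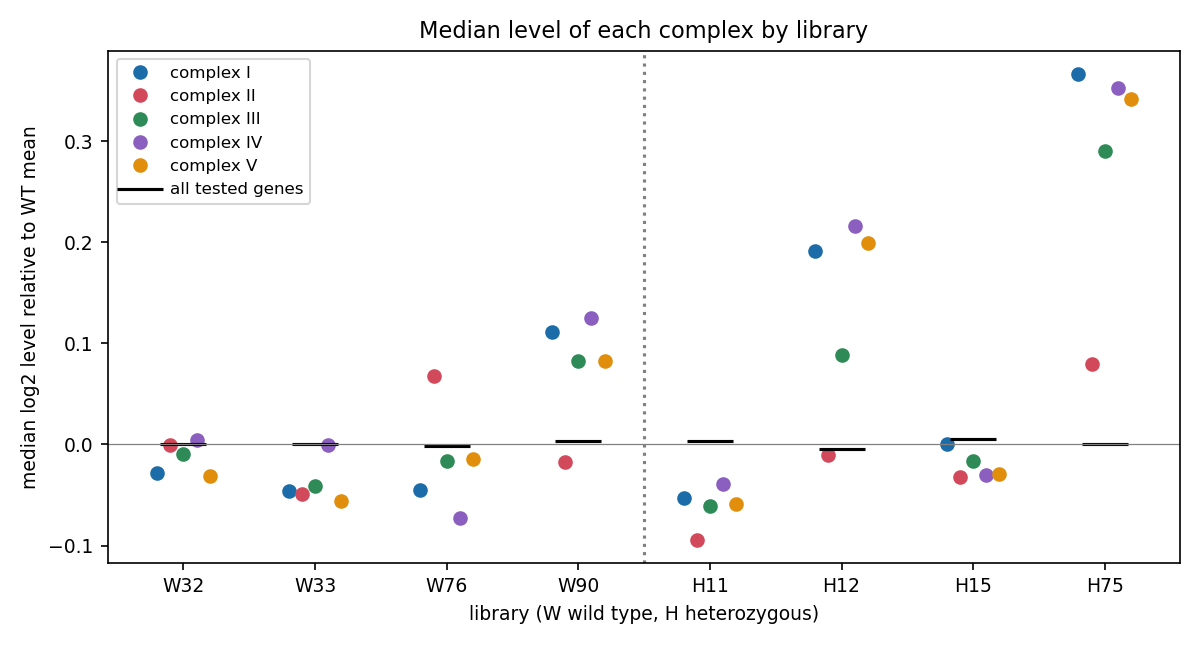
Each point is the median over the tested members of one complex of log2 CPM relative to the WT mean, by library, and short bars give the median of all tested genes. Complexes I, III, IV and V lie high in W90, H12 and H75, while complex II stays between -0.094 and 0.079 in every library.

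Gene length moved with this pattern. Members are short, with a median length of 737 bases in the deposited table against 2748.5 over all tested genes, and 56 of the 80 fell in the shortest decile of genes (57 to 1046 bases). That decile had a median log2 fold change of 0.11, and the longest decile -0.058. The slope of log2 CPM, relative to the WT mean, per 10-fold of gene length was -0.41 in H75, -0.25 in H12 and -0.15 in W90, and between 0.034 and 0.078 in the other 5 libraries. The libraries in which short genes were high were thus the libraries in which the members were high. With the length trend of each library removed, the median of the members was 0.034, against 0.0099 over all tested genes. In that fit 50 members had a higher mean and 30 a lower one. None was higher at an unadjusted p under 0.05, and 3 were lower at that level (Ndufs6b, Atp5g2 and Uqcr10). The matching shares of all tested genes are not given for this fit, so these member counts have no background to be judged against.

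The shorter 40 members (315 to 732 bases) had a median log2 fold change of 0.14, and the 527 other genes in that range 0.15. The longer 40 (742 to 4715 bases) had 0.099 against 0.014 in 10665 other genes. A higher mean in Het was found for 36 of the shorter members, against 70.2% of the other genes in their range. It was found for 34 of the longer members, against 52.8%. Members share their libraries, so these counts are not counts of independent results. Each member minus the median of its length decile gave a median of 0.039, with 52 of 80 above 0. What made short genes differ between libraries was not tested.

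**Figure D3:**
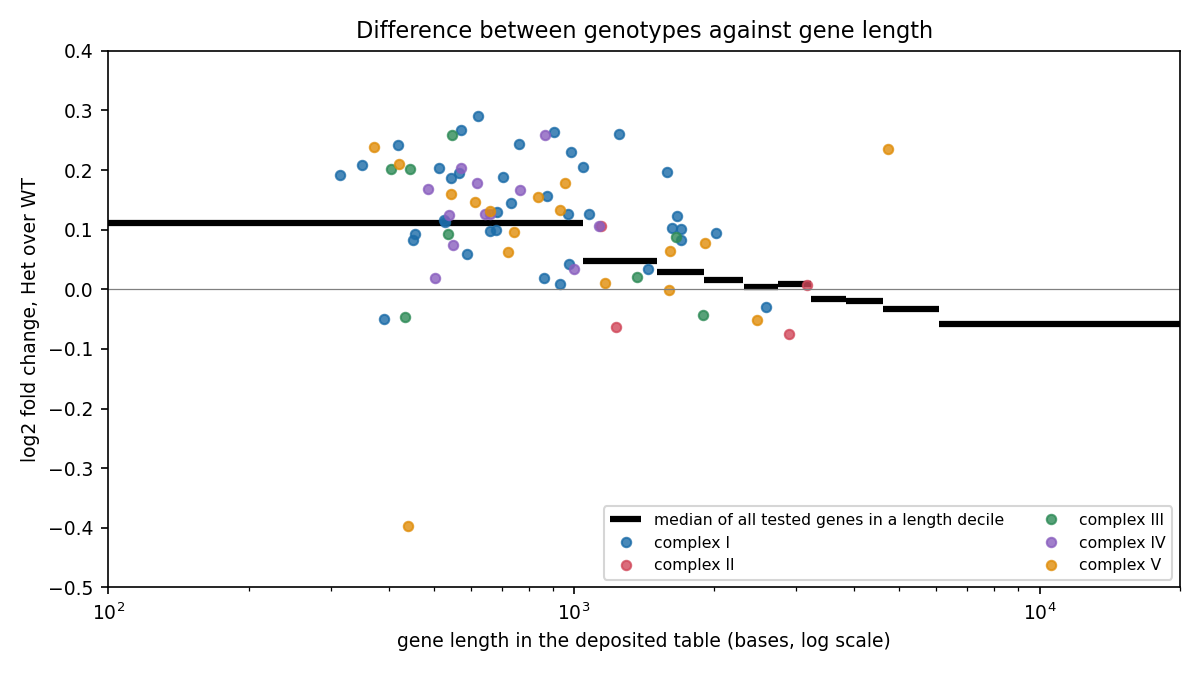
Log2 fold change of Het over WT (vertical axis) is plotted against gene length in bases (log axis) for the tested members except Ndufs6b, which lies below the axis, with the median of all tested genes in each length decile as a bar. Medians fall from 0.11 in the shortest decile to -0.058 in the longest, and most members sit near the bar of the shortest.

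As a share of all counts in a library, with no scaling factor, the tested and untested members together held 0.997 ± 0.039% in WT (SD, n = 4) and 0.993 ± 0.047% in Het (n = 4, exact permutation p = 0.857). By library this share was 1.007, 0.973, 0.9604 and 1.047% in W32, W33, W76 and W90. It was 0.950, 0.9593, 1.012 and 1.052% in H11, H12, H15 and H75, so H12 lay below every WT library. The TMM factors that scale the library totals were 0.909 in H12 and 0.900 in H75, and 0.9997 to 1.06 in the others. Comparisons of single libraries in CPM depend on these factors. Scaling by library totals alone moved the median log2 fold change of members to 0.027 and that of all genes to -0.079.

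Transcript levels per length spanned a wide range within each complex. On the scale of CPM per kilobase of gene length, the highest means over the 8 libraries were those of Uqcrq at 557, Atp5b at 547, Ndufa4 at 460.4 and Cox4i1 at 401. The median tested member stood at 104 CPM per kilobase. Lowest were Ndufa4l2 at 0.884, Cox7a1 at 1.44, Ndufs6b at 1.48 and Atp5s at 1.77. By complex the medians were 68.5 in complex I, 125 in complex II, 190 in complex III, 186 in complex IV and 173 in complex V. These values rest on the length the authors give each gene, which equals the longest protein-coding transcript of GENCODE for 58 of the 78 tested members that have one, and a liver that uses a shorter transcript would have a higher level than printed.

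**Figure D4:**
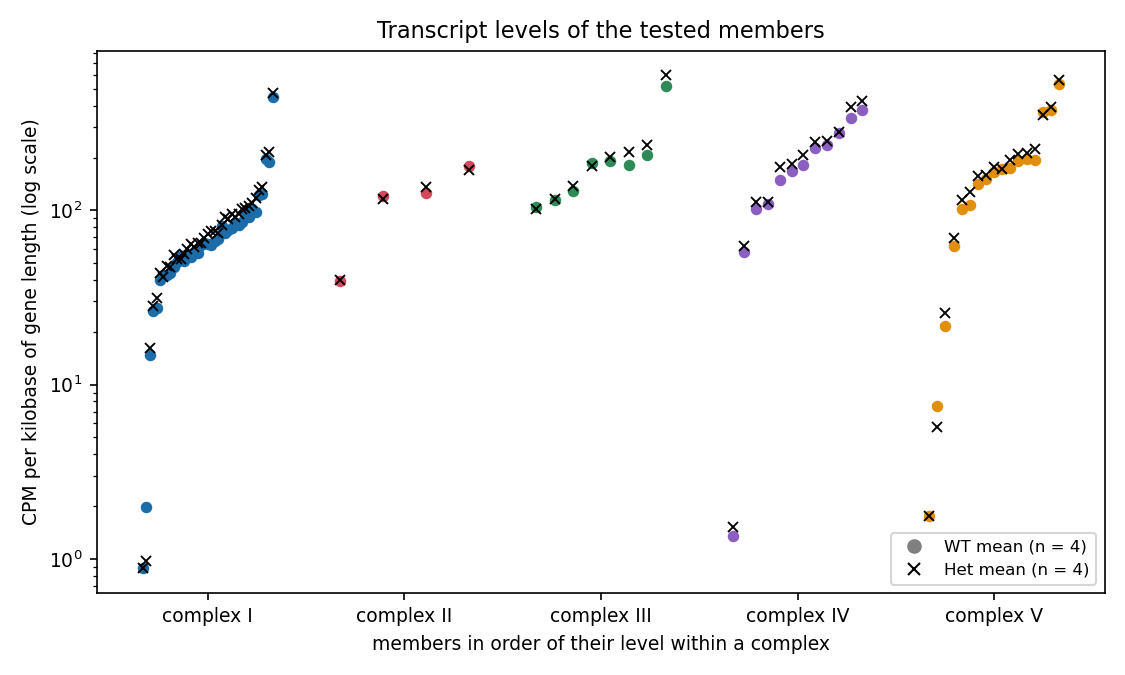
Mean CPM per kilobase of gene length (log axis) is shown for each tested member by complex, in order of level, with WT means as filled circles and Het means as crosses. Circles and crosses nearly coincide for most members, across a range from 0.88 to 557. They lie apart for Ndufs6b (1.99 in WT, 0.972 in Het) and Atp5g2 (7.55 and 5.73).

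Complex I, which oxidises NADH, had 39 tested members, of which 36 had a higher mean in Het, with a median log2 fold change of 0.13. None passed the edgeR test. In the arm that binds NADH, Ndufv1 carries the flavin and Ndufs1 several iron-sulfur clusters. Ndufv1 had 114, 114, 114 and 111 CPM in WT and 110.2, 131, 108 and 145 in Het, with H12 and H75 above and H11 and H15 below all WT libraries. Ndufs1 had 107, 101, 125 and 108 in WT and 107, 114, 99.9999 and 111 in Het, where the groups overlapped and the mean was slightly lower (log2 fold change -0.03, SE 0.092).

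Of the small accessory subunits of the membrane arm, Ndufb7 had the largest upward difference of any tested member. It had 43.9, 47.9, 41.6 and 52.2 CPM in WT and 47.3, 64.8, 50.5 and 64.7 in Het, so H12 and H75 stood above the WT range and H11 and H15 within it. Its log2 fold change was 0.29 (SE 0.13, unadjusted p = 0.0451, edgeR adjusted p = 0.523, exact permutation p = 0.143). With the length trend removed it was 0.17. The gene lies at chr8:83566671-83571626 of GRCm38. Ndufb11, another subunit of that arm, had 87.3, 85.3, 85.2 and 98.0 in WT and 92.3, 112, 91.2 and 132 in Het. Ndufb3 had 43.6, 40.3, 42.4 and 38.2 in WT and 45.0, 50.9, 40.0 and 59.1 in Het, where 3 of 4 Het libraries lay above WT. Ndufb9 had 126, 134, 127 and 149.9 in WT and 131, 157, 136 and 188 in Het. In each of these 4 genes H12 and H75 were the highest of the 8 libraries, and for Ndufb3 and Ndufb11 the adjusted p in edgeR was 0.569 and 0.558.

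Ndufa11, whose promoter site is printed above, had a WT mean of 34.9 ± 1.58 CPM (SD, n = 4) and a Het mean of 39.8 ± 4.58 (n = 4), and Ndufs7, an iron-sulfur subunit, 46.3 ± 5.70 and 54.4 ± 7.45. Ndufa4, a subunit first assigned to complex I and later found in complex IV, was the most abundant of the Nduf genes, at 201, 193, 192 and 223 CPM in WT and 194, 207, 198 and 257 in Het. Its paralogue Ndufa4l2, known as a gene induced by low oxygen, stood at 0.715, 0.715, 0.964 and 0.908 in WT and 1.004, 0.848, 0.850 and 0.600 in Het. It made up 0.198 ± 0.031% of the pair per kilobase in WT and 0.192 ± 0.058% in Het (SD, n = 4 each).

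The lowest fold change in complex I was that of Ndufs6b, which GENCODE lists as a processed pseudogene at chr7:81161397-81161744 and not as a gene for a subunit. It rested on 3 to 28 estimated counts per library, fractional in 6 of 8, at 0.817, 1.001, 0.617 and 0.340 CPM in WT and 0.402, 0.424, 0.127 and 0.4002 in Het. The groups overlapped (log2 fold change -1.03, SE 0.45, edgeR adjusted p = 0.526). Ndufs6, its source gene by name, had 47.2 ± 3.23 CPM in WT and 54.3 ± 9.62 in Het (SD, n = 4 each), so the split of reads between them can move the low values. The tested complex I members not printed library by library had log2 fold changes between -0.05 (Ndufb4c, also a processed pseudogene in GENCODE) and 0.27 (Ndufa2).

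Complex II, succinate dehydrogenase, also a step of the citric acid cycle, had a median log2 fold change of -0.028, with 2 of 4 members higher in mean and no passing gene. Sdha, the flavoprotein that oxidises succinate, had 527, 507, 547 and 501 CPM in WT and 497, 501, 482 and 498 in Het. Of the 4 Het libraries, 3 lay below every WT library and H12 lay just inside the WT range (log2 fold change -0.075, SE 0.08, edgeR adjusted p = 0.800, exact permutation p = 0.0571). The gene lies at chr13:74322254-74350280 on the minus strand. Sdhb, the iron-sulfur subunit, had 144, 138, 155 and 140.1 in WT and 142, 156, 150.04 and 172 in Het, higher in mean with H12 and H75 above the WT range (log2 fold change 0.11, SE 0.088). Sdhc and Sdhd anchor the enzyme in the membrane. Sdhc had 126, 119, 131 and 126 in WT and 115, 128, 119.8 and 141 in Het. Sdhd had 138, 146, 143 and 168 in WT and 133, 140.5, 148 and 147 in Het.

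The 4 genes are longer than most members, at 1142 to 3171 bases, and the median of the complex stood at -0.010 in H12 and 0.079 in H75. As a share of all counts in a library, complex II held 0.0967 ± 0.0019% in WT and 0.0890 ± 0.0050% in Het (SD, n = 4 each, exact permutation p = 0.0571, adjusted p over the 6 shares compared 0.343). These shares use library totals with no scaling factor. The lowest were those of H12 (0.0842%) and H75 (0.0862%), the libraries with the lowest TMM factors (0.909 and 0.900). Sdha, at 9951 to 15481 counts per library, supplied more of them than any other gene of the complex. The difference between complex II and the other complexes was not tested. Without H11 or without W90 its median turned to 0.0084 and 0.0038.

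Complex III passes electrons from ubiquinol to cytochrome c. Of its 8 members 6 had a higher mean in Het, the median log2 fold change was 0.091 and none passed the test. With library totals alone as scaling the median was -0.0018. Uqcrfs1, the Rieske iron-sulfur protein, had 148, 152, 161 and 165 CPM in WT and 148, 162, 145 and 179.5 in Het, with the groups overlapping. Uqcrc1, a core subunit facing the matrix, had 208, 207, 221 and 216 in WT and 221, 222, 212 and 253 in Het, where only H75 stood clearly apart. Uqcrh, the hinge protein at cytochrome c1, had the largest difference of the complex. It had 95.1, 102, 92.0 and 108 in WT and 98.5, 131, 106 and 139 in Het, with H12 and H75 above WT (log2 fold change 0.26, SE 0.12, edgeR adjusted p = 0.554).

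For the small subunits Uqcrq and Uqcr11, H12 and H75 again exceeded every WT library. Uqcrq had 209, 221, 175 and 234 CPM in WT and 206, 252, 229 and 277 in Het. Uqcr11 had 94.3, 95.0, 82.7 and 97.1 in WT and 86.6, 113, 93.5 and 132 in Het. The remaining members were Uqcrb, at a log2 fold change of 0.093, Uqcrc2, at -0.043, and Uqcr10, at -0.046.

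Complex IV, cytochrome c oxidase, had 12 tested members, all with a higher mean in Het and none passing the test, with a median log2 fold change of 0.13 that became 0.012, with 8 higher and 4 lower, once the length trend was removed. Cox4i1 and Cox5a encode the first nuclear subunits to join the enzyme. Cox4i1 had 280.0, 288, 266 and 321 CPM in WT and 286, 353, 283 and 376 in Het, and Cox5a 102, 99.1, 114 and 121 and 104, 131, 108 and 133. In both, H12 and H75 exceeded the WT libraries and H11 and H15 did not. Cox5b, the zinc-binding subunit, had 136, 134, 111 and 133 in WT and 132, 159, 141 and 184 in Het, where 3 of 4 Het libraries lay above WT (log2 fold change 0.26, SE 0.12, edgeR adjusted p = 0.550). It was the largest difference of the complex.

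Among the small subunits, Cox6b1 had 110.1, 113, 108 and 121 CPM in WT and 115, 132, 116 and 149.99 in Het, and Cox6a1 196, 194, 180.1 and 208 and 192, 242, 189.8 and 272. Cox6c had 139.6, 130.2, 136 and 156 in WT and 129.6, 146, 127 and 167 in Het, the smallest difference of the complex (log2 fold change 0.02, SE 0.11). Cox7b had 112, 103, 111 and 112 in WT and 102, 115, 99.9999 and 133 in Het. For Cox6c and Cox7b, Het libraries fell on both sides of the WT range and the means differed by less than the SD of either group. Cox8a had 136, 130.3, 120.2 and 135 in WT and 131, 122, 133 and 163 in Het, where H75 alone lay above the WT range. Cox7c, the remaining tested member, had a log2 fold change of 0.12 (SE 0.10).

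Several complex IV subunits exist as a general form and a form of heart, muscle, lung or testis, and the livers expressed the general forms. Cox4i2 had at most 2 counts in a library, Cox6a2 at most 4 and Cox8b at most 3, so each made up at most 0.114% of its subunit per kilobase in a library, and Cox7b2 and Cox8c had 0 counts in all 8. Cox6b2, known from testis, had 0 to 10 counts. For subunit 7a the transcripts were mainly those of Cox7a2 and Cox7a2l, and the muscle form Cox7a1 made up at most 1.25% in a library. Cox7a2 made up 63.3 ± 0.5% of the transcripts per kilobase in WT and 63.4 ± 1.8% in Het, and Cox7a2l, which takes part in joining complexes III and IV, 35.9 ± 0.4% and 35.7 ± 2.1% (SD, n = 4 each).

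Cox7a2 had 57.7, 68.4, 65.9 and 77.0 CPM in WT and 60.3, 79.2, 65.3 and 88.8 in Het, and Cox7a2l 56.9, 67.4, 63.2 and 73.6 and 65.5, 75.4, 61.6 and 78.6. In both, H12 and H75 exceeded every WT library. The muscle form Cox7a1, at 0.817, 0.465, 0.385 and 0.946 in WT and 0.442, 0.770, 0.510 and 1.25 in Het, made up 0.839 ± 0.346% and 0.844 ± 0.286% (SD, n = 4 each) and rested on 10 to 25 counts. Cox7a2l had fractional counts in all 8 libraries.

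Complex V, the ATP synthase, had 17 tested members, of which 14 had a higher mean in Het, with a median log2 fold change of 0.13. None passed the test. The catalytic head is built from the products of Atp5a1 and Atp5b, the most abundant members by CPM. Atp5a1 had 907, 866, 966 and 896 CPM in WT and 842, 887, 851 and 928 in Het, with overlapping groups and a log2 fold change of -0.051 (SE 0.087). Atp5b had 1011, 998, 1019 and 1050.0 in WT and 1053, 1030.4, 1028 and 1193 in Het, where H75 stood alone above the rest. Subunits e and g sit where the enzyme forms dimers. Their genes Atp5k and Atp5l had 37.1, 38.7, 44.4 and 39.5 and 92.5, 88.3, 96.9 and 101 CPM in WT and 37.1, 50.1, 40.7 and 60.5 and 96.1, 116, 92.7 and 119 in Het, again with H12 and H75 on top. The 10 members of the complex not named with values had log2 fold changes between -0.0013 (Atp5s) and 0.21 (Atp5e, the epsilon subunit of the central stalk).

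The proton-carrying ring of the enzyme is made of subunit c, for which Atp5g1, Atp5g2 and Atp5g3 encode the same mature protein behind different import sequences. Atp5g3 supplied most of the transcripts, at 269, 262, 269 and 288 CPM in WT and 245, 304, 260.2 and 328 in Het. Atp5g1 had 104, 101, 89.9 and 117 in WT and 105, 129, 110.4 and 140.4 in Het (log2 fold change 0.24, SE 0.12, edgeR adjusted p = 0.581). Atp5g2 had 3.54, 3.25, 3.31 and 3.21 in WT and 2.25, 2.93, 2.34 and 2.60 in Het, and every Het library lay below every WT library. Its log2 fold change was -0.40 (SE 0.16, unadjusted p = 0.0340, edgeR adjusted p = 0.493, exact permutation p = 0.0286). Over the other 19 fits it ranged from -0.55 to -0.34, with adjusted p between 0.359 and 0.808.

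Atp5g2, at chr15:102662864-102672352 on the minus strand, was the one member whose libraries separated fully by genotype, and it was lower where most members were higher in mean. Over all tested genes 2.32% separated in that direction, so 1 of 80 tested members is no excess over that share. Atp5g2 rested on 51.7 to 104 estimated counts per library, fractional in all 8, so reads were shared with other features and the counts depend on that split. Within the subunit c transcripts per kilobase, Atp5g2 made up 1.99, 1.88, 1.89 and 1.70% in the WT libraries and 1.38, 1.46, 1.36 and 1.198% in the Het libraries. Atp5g1 made up 5.48, 5.46, 4.78 and 5.78% in WT and 6.07, 6.03, 6.03 and 6.08% in Het. Neither share overlapped between the groups, the share of Atp5g2 being lower and that of Atp5g1 higher in every Het library, and the lengths used for these genes were 441 and 4715 bases. The Atp5g2 share rests on the same low counts as its CPM and adds no separate result. In CPM, Atp5g1 overlapped between the groups. How often shares of other gene sets separate in this way was not counted. Atp5g3 made up 92.8 ± 0.4% in WT and 92.6 ± 0.1% in Het (SD, n = 4 each). No test of these shares was planned. These shares depend on the lengths: with the median GENCODE transcript of each gene, Atp5g2 made up 1.16% in WT and 0.833% in Het, and Atp5g1 9.10% and 10.2%.

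**Figure D5:**
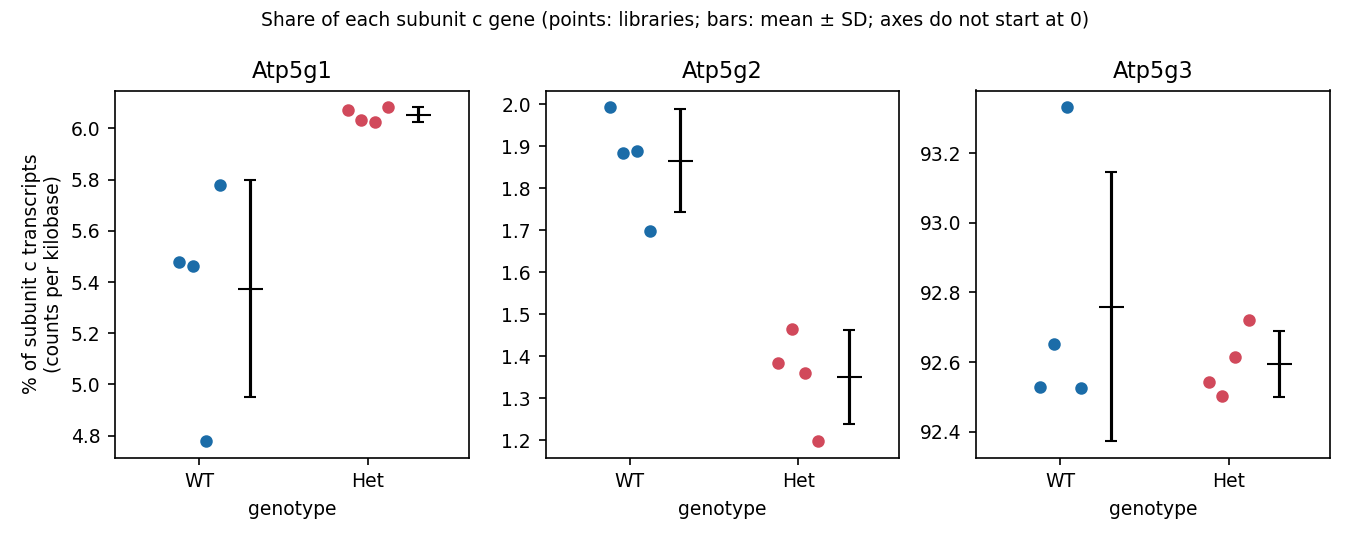
The share of each of the 3 subunit c genes in their summed counts per kilobase (vertical axis, %, not starting at 0) is plotted by library, with mean ± SD per genotype. For Atp5g2 the Het points lie between 1.198 and 1.46 and the WT points between 1.70 and 1.99, and for Atp5g1 the Het points lie at 6.03 to 6.08 above all WT points.

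Genes that serve the complexes without being their subunits were counted from lists of known roles. Of 50 tested assembly factors, 34 had a higher mean in Het, edgeR gave 2 of the 34 and 1 of the others an unadjusted p under 0.05, and none passed after adjustment. Over all tested genes 51.1% had a higher mean, and 4.90% were higher and 4.44% lower at that level. These factors had a median length of 1474.5 bases, against 2748.5 over all tested genes. In the length decile of 1047 to 1506 bases, 59.5% of all tested genes had a higher mean. Among the assembly factors the lowest p was that of Uqcc2, a complex III assembly factor, at 10.3, 10.8, 8.36 and 11.3 CPM in WT and 10.96, 15.4, 11.9 and 15.8 in Het (log2 fold change 0.41, SE 0.15, edgeR adjusted p = 0.479). Sco2, a copper chaperone of complex IV, came next at 34.5, 38.3, 40.2 and 38.7 in WT and 48.4, 49.7, 34.2 and 57.2 in Het (log2 fold change 0.32, SE 0.14). In both, the groups overlapped and H12 and H75 were the highest libraries.

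Of the 19 regulators of mitochondrial biogenesis, 10 had a higher and 9 a lower mean, and none passed. The coactivator genes of lowest p went in opposite directions. Pprc1 had 7.02, 8.29, 9.56 and 10.3 CPM in WT and 11.3, 18.3, 11.2 and 11.4 in Het, with every Het library above every WT library (log2 fold change 0.57, SE 0.19, edgeR adjusted p = 0.436). Such a separation held for 2.06% of all tested genes. Ppargc1a had 9.33, 10.6, 6.63 and 5.07 in WT and 4.62, 3.74, 6.75 and 5.40 in Het, with overlapping groups (log2 fold change -0.63, SE 0.26, edgeR adjusted p = 0.495). Transcripts of the factors whose letters were searched in the promoters had log2 fold changes of -0.023 for Nrf1 (SE 0.19), -0.095 for Gabpa (SE 0.078), 0.067 for Yy1 (SE 0.077) and -0.20 for Esrra, an estrogen-related receptor (SE 0.14).

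Of 18 tested electron carriers, ubiquinone enzymes and subunits outside the symbol pattern, 10 had a higher and 8 a lower mean, and none passed. Atpif1, the inhibitor of ATP synthase, had 7.49, 7.504, 6.40 and 7.04 CPM in WT and 8.51, 8.78, 9.01 and 9.01 in Het, and every Het library exceeded every WT library (log2 fold change 0.31, SE 0.11, edgeR adjusted p = 0.452). With the length trend removed the difference was 0.19. All Het libraries lay above all WT libraries for 2.06% of all tested genes. Coq8a, needed for ubiquinone synthesis, had 419, 472, 458 and 395 in WT and 337, 274, 444 and 328 in Het, lower in mean with overlapping groups (log2 fold change -0.34, SE 0.14).

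The subunits encoded in mitochondrial DNA, partners of these proteins, had a higher mean in Het for 2 of 11 tested genes, and none passed. Their summed level was 60135 to 70457 CPM in WT and 55994 to 58330 CPM in Het, without overlap. Most of it was mt-Co1 (means 27233 and 24080) and mt-Nd5 (16639 and 13441), and each of these overlapped between the groups. Alone, mt-Cytb and mt-Atp8 had every Het library below every WT library (background 2.32% of all genes). The log2 fold changes of mt-Nd1, mt-Nd2, mt-Nd4 and mt-Nd6 lay between -0.054 and 0.027.

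Whole livers hold several cell types, and in bulk RNA fewer cells of a type and less RNA per cell cannot be told apart. The summed level of 7 hepatocyte markers was 75592 to 102736 CPM in WT and 87964 to 97388 CPM in Het, most of it Alb (71898 ± 9746 and 70743 ± 4187, SD, n = 4 each). Of the 7, 6 had a higher mean in Het and none passed the test. Hnf4a, a transcription factor of hepatocytes, had 537, 504, 528 and 495 CPM in WT and 609, 671, 538 and 715 in Het, with every Het library above every WT library and H12 and H75 highest (unadjusted p = 0.0187, edgeR adjusted p = 0.458). Sums of markers of Kupffer cells (74.9 to 185 and 75.6 to 182 CPM), sinusoidal endothelium (112 to 157 and 130.1 to 194), stellate cells (169 to 223 and 90.1 to 249) and cholangiocytes (34.1 to 87.1 and 40.9 to 101) overlapped between WT and Het, with 6 of 6, 5 of 6, 0 of 6 and 5 of 5 tested markers higher in mean and none passing. Over all tested genes 51.1% had a higher mean. Within the cholangiocyte sum, Sox9 had 7.90, 9.43, 8.13 and 9.57 CPM in WT and 8.84, 44.8, 8.24 and 20.2 in Het. H12 and H75 were thus its highest libraries (edgeR unadjusted p = 0.0280, adjusted p = 0.482). The endothelial marker Pecam1 was also higher in mean (edgeR unadjusted p = 0.0474, adjusted p = 0.527). H12 and H75, the libraries with high members, had the lowest stellate sums of all 8, at 148 and 90.1 CPM. The same libraries had the highest neutrophil sums, at 6.97 and 6.05 CPM, where WT ran from 0.908 to 2.28 and Het from 1.40 to 6.97. All 3 tested neutrophil markers had a higher mean in Het, 2 of them (S100a8 and S100a9) at an unadjusted p under 0.05 in edgeR, and none passed the test. Sums also overlapped for erythroid markers (269.98 to 412 in WT, 302 to 459.8 in Het, 5 of 5 higher in mean), lymphocytes (0.530 to 2.18 and 1.201 to 3.21) and muscle (0.286 to 1.74 and 0.0850 to 0.4002, with Myh1 at 0 in all).

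The sum of 5 adipocyte markers was lower in every Het library (5.35 to 6.4996 CPM) than in every WT library (8.75 to 12.3), with Ucp1 at 0 in all. Within that sum the difference lay in Cidea, a gene for a lipid droplet protein, at 6.71, 3.502, 6.51 and 4.24 CPM in WT and 0.0803, 0.0385, 0.467 and 0.1001 in Het (edgeR adjusted p = 0.0546, DESeq2 adjusted p = 2.66e-17). Fabp4, the other tested adipocyte marker, had 5.58 ± 0.373 CPM in WT and 5.61 ± 0.362 in Het (SD, n = 4 each), and Plin1 and Adipoq were below 0.1 CPM in every library. The part of these cells in the values of the members was not tested.

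The authors' deposited table of comparisons marked 0 members as significant. In the authors' deposited table the adjusted p of the tested members lay between 0.489 and 0.9996, and the sign of the fold change was that of the edgeR fit for 80 of 80.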

How the data were processed

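RNA came from snap-frozen liver by Trizol, with a Ribo-Zero step against ribosomal RNA, per the labels' protocols. Per the submitters' processing notes, reads were handled on mm10 with tools that include Bowtie2 2.2.9, fastp 0.19.5, SAMtools 1.9 and GATK 3.8. The counting program, not given in the sources used here, may or may not have used strand, so counts of the 25 tested members that overlap an exon on the other strand may include reads of that gene. The authors deposited estimated counts per gene, of which 90.0% are whole, and 29 members carry fractions. The authors' deposited table gives, per the file headers, gene length in bases, a p-value, the log2 fold change and the fold as a ratio.

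Counts were rounded, filtered with filterByExpr, scaled with TMM and compared in edgeR 4.0.16 (R 4.3.3) by its quasi-likelihood test, all 8 libraries in one fit with genotype as the only term and Benjamini-Hochberg adjustment over 14261 genes. Column names give the genotype by their first letter and no replicate number. CPM use TMM-scaled library sizes, and 0.5 CPM was added before log2 for library medians and permutation tests, which enumerate 70 assignments, two-sided. Length trends were fitted per library by lowess (span 0.4) and entered as offsets. Coordinates are from GENCODE release M21 on GRCm38, the assembly of mm10, and promoters from RefSeq on GRCm38.p6. Alternatives were DESeq2 1.42.0, limma-voom (limma 3.58.1), other scaling, filters, thresholds and quasi-likelihood settings, removal of abundant RNA and leaving out each library.

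Described with values in every library are, per complex, the 4 tested members of lowest p and the 2 highest per kilobase, a set of core subunits and tissue isoforms, and in each list of other pathway genes the 2 of lowest p. A member under this rule is not reported here. Other genes named were chosen after their values were seen. Members and lists were chosen with earlier results of these data known. The scripts were tested on simulated data with the means and sizes of these libraries. There the edgeR test called 2 of 49 genes changed 1.2-fold, 4 of 49 changed 1.5-fold and 28 of 50 changed 2-fold. A member that did not pass is therefore not shown to be unchanged.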

Additional observations from a re-analysis of the deposited data

Results flagged for a closer look

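In groups of 4 libraries, 86 series of values were searched for a highest or lowest library that stood far from the rest, and 7 were found. Chance gives about 1 in 20 such groups. In WT the library W90 stood far above the others for Ndufb11 (98.0 CPM, next 87.3), for the median of all members (0.09999, next -0.022) and for the median of complex I (0.111, next -0.028), the last in log2 CPM relative to the WT mean. W90 is also the WT library in which level fell with gene length. In Het the library H75 stood far above the others for Atp5b (1193 CPM, next 1053), and H15 far below for Ndufs6b (0.127 CPM, next 0.4002), where H15 held 3 counts. Cox5b was far lower in W76 (111 CPM, next 133) and Cox7b far lower in W33 (103 CPM, next 111) than in the other WT libraries.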

How the results depend on the processing

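No alternative called a member. The median log2 fold change of the members stayed above 0, between 0.027 (library totals alone) and 0.18 (without H11). No paired analysis was possible because the columns carry no replicate number. Over all tested genes, edgeR called 0, and 1 with the newer quasi-likelihood method, the robust fit, abundant RNA removed or an adjusted p under 0.1, 18 without a filter, DESeq2 152, and 0 to 252 with one library left out, the highest without H15 and 2 without W32. Members higher at an unadjusted p under 0.05 numbered 1, but 2 in DESeq2, 0 with the length trend removed, library totals alone or limma-voom, and 0 to 12 with one library left out. Lower members numbered 2, but 3 with the length trend removed, 1 with the CPM filter, DESeq2 or limma-voom, 0 without a filter, and 0 to 2 with one library left out. Of all tested genes, 4.90% were higher and 4.44% lower at that level in the main fit. The shares were 5.17% and 4.58% in DESeq2, and 4.35% and 5.04% in limma-voom. Higher genes made up 7.84% without H15 and 5.70% without H11. Shares for the other fits are not given, so their member counts cannot be judged. The complex II median was -0.12 with library totals alone.

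Of 37 named members 25 kept their sign in every fit, and no named member passed the test in any. With the length trend removed the log2 fold change was -0.064 for Ndufa4, -0.047 for Ndufa4l2, -0.017 for Uqcrfs1, -0.12 for Cox6c, -0.036 for Cox7b, -0.049 for Cox8a and -0.041 for Atp5g3. With library totals alone it was -0.012 for Ndufa4, -0.068 for Ndufa4l2, -0.084 for Sdhc, -0.0020 for Uqcrc1, -0.071 for Uqcrfs1, -0.076 for Cox6c, -0.061 for Cox7b, -0.016 for Cox8a, -0.011 for Atp5b and -0.033 for Atp5g3, and with upper quartile scaling -0.0049 for Ndufa4l2 and -0.0083 for Sdhc. With one library left out it ran from -0.015 to 0.13 for Atp5g3, -0.066 to 0.073 for Cox6c, -0.18 to 0.39 for Cox7a1, -0.056 to 0.087 for Cox7b, -0.018 to 0.13 for Cox8a, -0.019 to 0.13 for Ndufa4, -0.098 to 0.13 for Ndufa4l2, -0.068 to 0.039 for Ndufs1, -0.052 to 0.049 for Sdhc and -0.043 to 0.062 for Uqcrfs1. The cause was not tested. Depth limits Ndufs6b (3 to 28 counts per library), Cox7a1 (10 to 25) and Ndufa4l2 (12 to 25).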

Other observations

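Among markers of mitochondrial content, Cs, the citrate synthase that opens the citric acid cycle, was chosen for mention after its values were seen. It had 139.9, 141, 142 and 129 CPM in WT and 105, 99.0, 129 and 92.9 in Het, where H15 alone reached the WT range (log2 fold change -0.37, SE 0.11, unadjusted p = 0.00697, edgeR adjusted p = 0.390). With the length trend removed the difference was -0.37. Of the 10 genes of that list 5 had a higher and 5 a lower mean, and none passed the test.

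Ndufb1-ps, left out by its symbol, is listed in GENCODE as a noncoding RNA from a bidirectional promoter and not as a processed pseudogene. It was tested, with 609 to 876 counts per library, at 29.2 ± 2.4 CPM in WT and 32.1 ± 6.8 in Het (SD, n = 4 each, log2 fold change 0.13, SE 0.14). The other 7 symbols marked -ps had 0 counts in every library. Within the mitochondrially encoded genes, mt-Co3 stood at 217, 32.8, 33.7 and 16.1 CPM in WT and 211, 210.2, 179.8 and 281 in Het, and mt-Atp6 had at most 1 count in a library.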
